A study of Sus scrofa with 12 samples.

Results

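The neuromuscular junction is the synapse at which a motor neuron drives a skeletal muscle fibre, and the genes described here build its receptor and the signal that gathers that receptor under the nerve ending. A set of 10 gene symbols was looked for in the count table of Semimembranosus muscle: CHRNA1, CHRNB1, CHRND, CHRNE and CHRNG, which code for subunits of the muscle acetylcholine receptor, AGRN, LRP4 and MUSK, which code for the nerve signal agrin and its receptor complex, and DOK7 and RAPSN, which code for the adaptors inside the fibre. Members were the rows whose Ensembl identifier carries a listed symbol in the pig gene name table. Of the 10 symbols, 5 were found among the 25880 genes listed, namely CHRNA1, CHRNE, MUSK, LRP4 and AGRN, and all 5 had enough counts to be tested. For 3 others, CHRNB1, CHRND and CHRNG, the table gives an identifier that matched no row used here, and for 2, DOK7 and RAPSN, it gives none. These 5 genes were not analysed here.

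The samples were Semimembranosus muscle, a hind leg muscle, of 12 purebred Italian Large White pigs taken at a commercial slaughterhouse, 6 labelled with high and 6 with low intramuscular fat (IMF). All pigs were experimentally untreated and were kept separately in the same conditions on the same diet. They were labelled with a live weight of 150 to 160 kg and were 229 to 249 days old. Each group held 3 pigs labelled female and 3 labelled male, and pigs 1 to 6 were the high IMF group and pigs 7 to 12 the low IMF group. The study describes the females as gilts and the males as barrows, which are castrated. Each library came from a piece of whole muscle and from a different pig, so the counts mix fibres, nerve, vessels and fat, and the few nuclei under a synapse are a small part of the RNA. Fewer cells of a type and less RNA per cell cannot be told apart in such samples.

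A pig had between 131048805 and 178013997 counts in total. In every pig this exceeds the input reads that the study reports, so a read pair may have been counted more than once. How counts relate to read pairs was not determined here. Markers of the muscle fibre were abundant in each pig, with counts-per-million (CPM) values of at least 7050 for CKM, muscle creatine kinase, and 14492 for ACTA1, skeletal actin. CPM here is the count of a gene divided by the total scaled with TMM factors. The counts on 2 genes of the Y chromosome went against the labelled sex in 6 of the 12 pigs (2 with high and 4 with low IMF). For some comparisons of the members, the value is therefore also given for the 6 pigs, 4 high and 2 low IMF, whose counts match their labels. For genes of the pathway and cell type lists it is not given, so their values may differ in those pigs. A match in sex does not show that the other labels of a pig are right. The IMF group comes from the same labels, so it too may not be that of the pig it is given for. Pigs were slaughtered on several days and their libraries sequenced in pairs, and the day and lane of each pig were not used here, so such batches were not analysed.

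In the adult fibre, agrin released by the nerve binds LRP4, LRP4 switches on the kinase MuSK, and MuSK acts through DOK7 and rapsyn to cluster acetylcholine receptors. The receptor is a ring of subunits around an ion channel. The fetal form contains the gamma subunit, product of CHRNG, and after innervation the epsilon subunit, product of CHRNE, takes its place, while the alpha subunit, product of CHRNA1, belongs to both forms. Nuclei under the synapse transcribe the subunit genes strongly and the other nuclei of an active fibre weakly, whereas a fibre that has lost its nerve transcribes CHRNA1, CHRNG and MUSK along its length. E-boxes, with the letters CANNTG, are bound by myogenic factors such as myogenin, and the N-box, with the letters CCGGAA, is bound by the Ets factor GABP in synaptic nuclei.

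The 250 bases before the RefSeq start of each member were read from Sscrofa11.1 to show which of these motifs they hold. The windows of CHRNA1, CHRNE, for which RefSeq gives 2 separate starts, and MUSK are printed because these genes are the ones that nerve activity is known to regulate through E-boxes or the N-box. Each is written 5′ to 3′ on the strand of the gene, and capitals mark the matches to CANNTG, which reads the same on both strands, and to CCGGAA on either strand.
CHRNA1, chr15:80692257-80692506, minus strand: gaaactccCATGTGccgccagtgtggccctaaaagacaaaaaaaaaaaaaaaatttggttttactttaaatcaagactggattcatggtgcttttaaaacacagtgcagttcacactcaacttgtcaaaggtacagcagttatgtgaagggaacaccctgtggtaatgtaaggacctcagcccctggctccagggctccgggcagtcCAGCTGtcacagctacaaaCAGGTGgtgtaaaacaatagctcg
CHRNE, first start, chr12:51999254-51999503, plus strand: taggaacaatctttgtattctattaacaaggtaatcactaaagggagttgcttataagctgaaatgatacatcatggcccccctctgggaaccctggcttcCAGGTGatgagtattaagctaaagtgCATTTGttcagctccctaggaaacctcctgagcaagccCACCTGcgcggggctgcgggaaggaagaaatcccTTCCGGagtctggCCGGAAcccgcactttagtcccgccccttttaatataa
CHRNE, second start, chr12:52010607-52010856, plus strand: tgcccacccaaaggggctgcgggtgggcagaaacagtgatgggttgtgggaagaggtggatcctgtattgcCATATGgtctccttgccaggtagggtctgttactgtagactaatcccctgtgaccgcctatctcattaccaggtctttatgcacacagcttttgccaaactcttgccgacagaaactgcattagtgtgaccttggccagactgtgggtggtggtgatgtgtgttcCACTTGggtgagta
MUSK, chr1:251649901-251650150, plus strand: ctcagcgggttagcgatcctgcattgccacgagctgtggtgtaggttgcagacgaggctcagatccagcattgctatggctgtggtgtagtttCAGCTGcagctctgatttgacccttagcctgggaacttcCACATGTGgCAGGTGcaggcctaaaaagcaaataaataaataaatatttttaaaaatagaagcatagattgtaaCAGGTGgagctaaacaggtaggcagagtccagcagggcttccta

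The window of CHRNA1 held 3 E-boxes, and those nearest the start began 43 and 24 bases before it. That of MUSK held 5, of which CACATG and CATGTG share letters and are capitalised as a single run. That at the first start of CHRNE held 3 E-boxes and 2 N-box matches, which began 51 and 38 bases before the start. Among the windows of 19556 RefSeq genes, 10.3% held at least 3 E-boxes, 0.844% at least 5 and 13.6% an N-box. The windows of LRP4 and AGRN held neither motif and had a GC content of 80.4% and 82.0%, against a median of 57.6% over all windows, and 38.1% of all windows held no E-box. The window at the second start of CHRNE, at base 52010857, held 2 E-boxes and no N-box. Which of these windows is the promoter of the receptor gene in the pig was not determined here. Repeated sequence was not masked in any window, so a match, those of MUSK among them, may lie in a repeat. A match is a description of letters and not evidence of binding, and absence of a match refers to this window alone.

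The members lie on 5 chromosomes of Sscrofa11.1 in the RefSeq annotation. CHRNA1 (ENSSSCG00000015969) occupies chr15:80673072-80692256 on the minus strand, with 9 exons. CHRNE (ENSSSCG00000017909) occupies chr12:51999504-52016592 on the plus strand, and RefSeq lists this pig locus as a long non-coding RNA with 5 transcripts, although the gene codes for a receptor subunit in other mammals. Of its 3914 exonic bases, 296 lie inside MINK1 on the opposite strand. MUSK (ENSSSCG00000005456) occupies chr1:251650151-251758538 on the plus strand, inside the span of an antisense long non-coding RNA, LOC110256901. LRP4 (ENSSSCG00000013248), with 38 exons, lies at chr2:15616137-15672876, and AGRN (ENSSSCG00000022204) at chr6:63366017-63398311, both on the plus strand. Of the exonic bases of AGRN, 139 lie inside LOC110261384 on the opposite strand. The libraries were stranded, but the strand option of the counting is not given in the sources used here, so counts of CHRNE, MUSK and AGRN may contain reads of these neighbours.

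All 5 members were of middling abundance and were well counted in every pig. Their mean levels stood at percentiles 42.9 to 56.5 of the 14262 genes tested, and the fewest counts of a member in a pig were 142, for CHRNE in pig 12. Counting error was therefore small beside the spread between pigs.

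CHRNA1, the alpha subunit common to the fetal and the adult receptor, measured 7.10, 20.2, 4.19, 7.62, 7.84 and 12.6 CPM in high IMF pigs 1 to 6. In low IMF pigs 7 to 12 it measured 7.95, 5.80, 8.27, 6.53, 7.47 and 4.70 CPM. Pigs 2 and 6 of the high IMF group stood above every low IMF pig, and the other 4 high IMF pigs lay within or just below the range of the low IMF group. The means were 9.92 ± 5.71 CPM (SD, n = 6) in high IMF and 6.79 ± 1.37 CPM (SD, n = 6) in low IMF.

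CHRNE, the epsilon subunit that marks the adult receptor, measured 3.56, 3.62, 2.68, 4.83, 3.84 and 2.19 CPM in high IMF pigs 1 to 6. In low IMF pigs 7 to 12 it measured 9.82, 4.09, 5.05, 4.10, 4.37 and 0.832 CPM. The highest and the lowest of the 12 values were both in the low IMF group, in pigs 7 and 12, and the other 4 low IMF pigs stayed between 4.09 and 5.05 CPM. The means were 3.45 ± 0.925 CPM (SD, n = 6) in high IMF and 4.71 ± 2.90 CPM (SD, n = 6) in low IMF.

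MUSK, the receptor kinase that starts clustering, measured 2.68, 5.54, 2.80, 2.54, 6.21 and 3.81 CPM in high IMF pigs 1 to 6. In low IMF pigs 7 to 12 it measured 2.91, 2.60, 3.43, 4.55, 6.07 and 5.38 CPM. The groups covered nearly the same range, and each held pigs at both ends of it. The means were 3.93 ± 1.59 CPM (SD, n = 6) and 4.16 ± 1.40 CPM (SD, n = 6) in the same order.

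LRP4, the agrin receptor that activates MuSK, measured 4.97, 5.47, 4.81, 4.03, 4.66 and 6.34 CPM in high IMF pigs 1 to 6. In low IMF pigs 7 to 12 it measured 7.22, 11.3, 10.3, 4.85, 6.59 and 3.97 CPM. The 6 high IMF pigs lay close together, 4 low IMF pigs exceeded all of them, and pig 12 was the lowest of the 12. The means were 5.05 ± 0.788 CPM (SD, n = 6) in high IMF and 7.38 ± 2.93 CPM (SD, n = 6) in low IMF.

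AGRN codes for agrin, which motor neurons release and which muscle and other cells also make in forms that differ in splicing and that gene counts do not separate. It measured 7.72, 8.92, 4.12, 3.48, 5.09 and 2.27 CPM in high IMF pigs 1 to 6 and 5.87, 5.85, 7.38, 3.36, 4.18 and 8.18 CPM in low IMF pigs 7 to 12. The extremes were pigs 2 and 6, both of the high IMF group, and the low IMF pigs lay between them. The means were 5.27 ± 2.56 CPM (SD, n = 6) in high IMF and 5.80 ± 1.83 CPM (SD, n = 6) in low IMF.

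**Figure D1:**
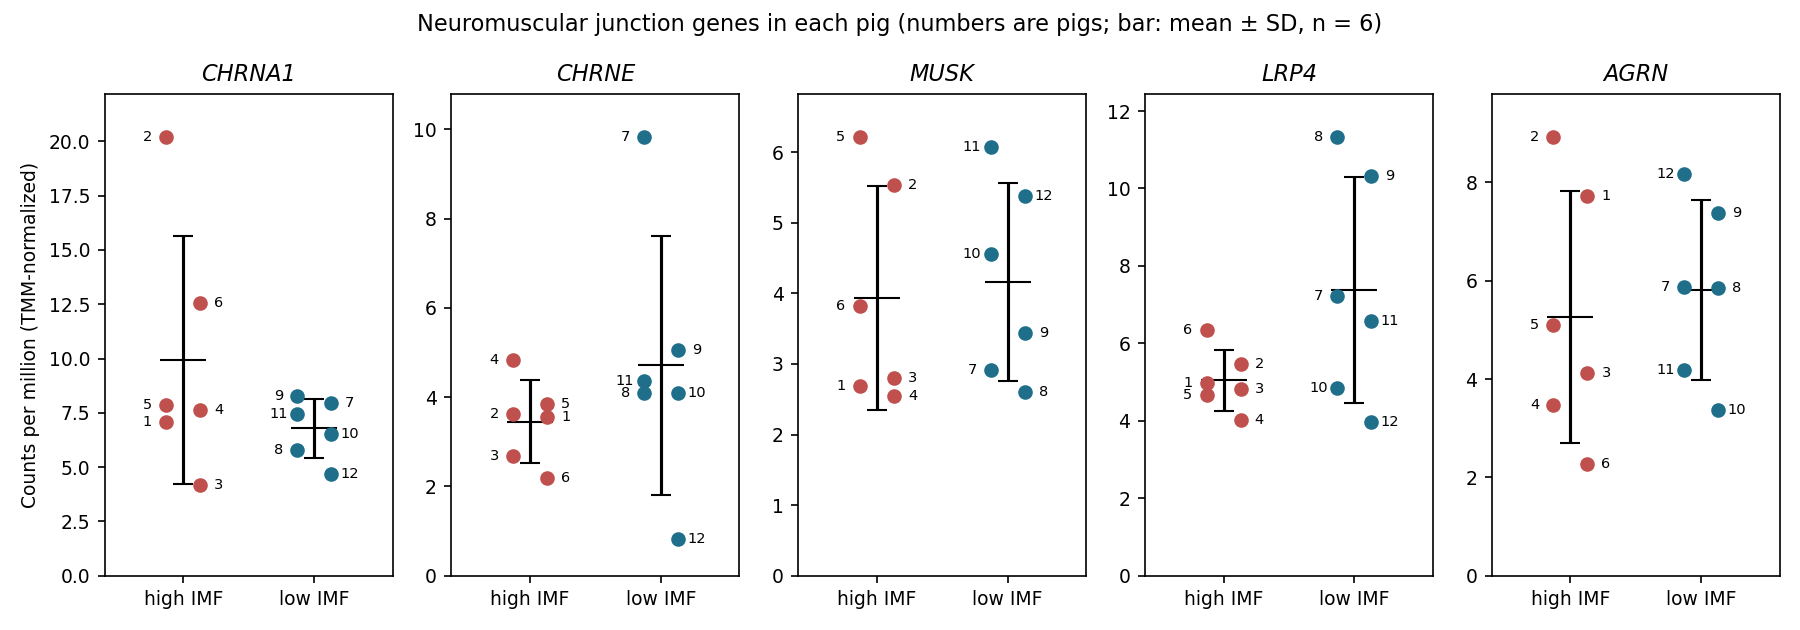
TMM-normalized CPM of CHRNA1, CHRNE, MUSK, LRP4 and AGRN in each of the 12 pigs, by IMF group, with the mean and SD of 6 pigs as bars and the pig number beside each point. The groups overlap for all 5 genes, and single pigs stand apart, pig 2 for CHRNA1 at 20.2 CPM and pig 12 for CHRNE at 0.832 CPM.

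The comparison of the adult with the fetal receptor was limited to CHRNE, which is particular to the adult form, and CHRNA1, which both forms contain. CHRNE was counted in all 12 pigs, with 142 to 1065 counts. The ratio of CHRNE to CHRNG could not be computed, since CHRNG was not analysed here, and these values therefore do not tell how much fetal receptor message was present.

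Levels of different genes were compared per kilobase of exon within pigs, with exact two-sided sign-flip permutation tests over 4096 arrangements and adjustment over the 10 pairs of members. The lengths are those of the union of RefSeq exons and may differ from the Ensembl models that were counted. CHRNA1 was highest, with a median of 2.03 CPM per kb and a range of 1.13 to 5.43. CHRNE followed with a median of 1.01 CPM per kb and a range from 0.213 to 2.51, the widest of the 5 as a ratio of the highest to the lowest pig. AGRN had a median of 0.727 CPM per kb, LRP4 of 0.646 and MUSK, the lowest, of 0.342.

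CHRNA1 exceeded CHRNE in 11 of 12 pigs, by 1.17 ± 0.908 on the log2 scale (SD, n = 12; exact permutation p = 0.000977, adjusted p = 0.00244). The exception was pig 7. This order depends on the length given to CHRNE. With its shortest RefSeq transcript, of 2168 bases, the difference was 0.32 on the log2 scale (adjusted p = 0.238 by the exact permutation test), and CHRNA1 was higher in 5 of 12 pigs. CHRNA1 exceeded AGRN, LRP4 and MUSK in 12 of 12 pigs (adjusted p = 0.00163 for each by the exact permutation test), and MUSK was below AGRN and LRP4 in 10 of 12 pigs each (adjusted p = 0.00698 and 0.00391 by the same test). The neighbours CHRNE, AGRN and LRP4 did not differ beyond their spread (adjusted p between 0.205 and 0.667 by the exact permutation test). With the shortest transcript, CHRNE exceeded both of the others (adjusted p = 0.00549 for AGRN and 0.00195 for LRP4 by the same test).

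**Figure D2:**
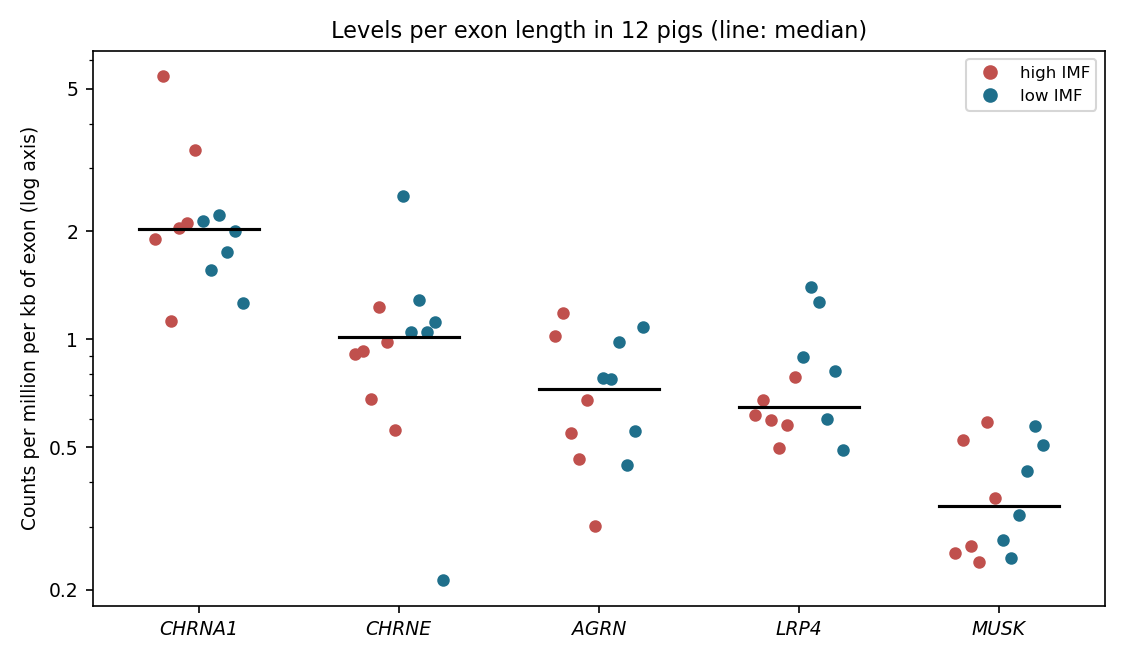
CPM per kilobase of exon, on a log axis, for the 5 members in 12 pigs, ordered by the median, which is drawn as a line, and coloured by IMF group. CHRNA1 is highest at a median of 2.03 and MUSK lowest at 0.342, and CHRNE covers the widest range on this log axis, with pig 12 lowest at 0.213.

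The members varied more between pigs than most genes did. The biological coefficient of variation (BCV) is the spread between pigs of the same group, as a share of the mean, after counting error is taken off. It was 0.479 for CHRNE, 0.385 for AGRN, 0.376 for CHRNA1, 0.346 for MUSK and 0.295 for LRP4, against a median of 0.241 over the 14262 genes tested. All 5 members stood above the value fitted for genes of their abundance, which was 0.292 for CHRNE and 0.264 for CHRNA1, and at percentiles 63.2 to 85.9 of all genes. These positions are a description and were not tested.

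The highest pig exceeded the lowest 11.8-fold for CHRNE, 4.82-fold for CHRNA1, 3.93-fold for AGRN, 2.85-fold for LRP4 and 2.45-fold for MUSK, where the median gene had 2.16-fold. Much of the range of CHRNE came from pigs 7 and 12, since the second highest pig had 5.05 CPM and the second lowest 2.19 CPM.

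**Figure D3:**
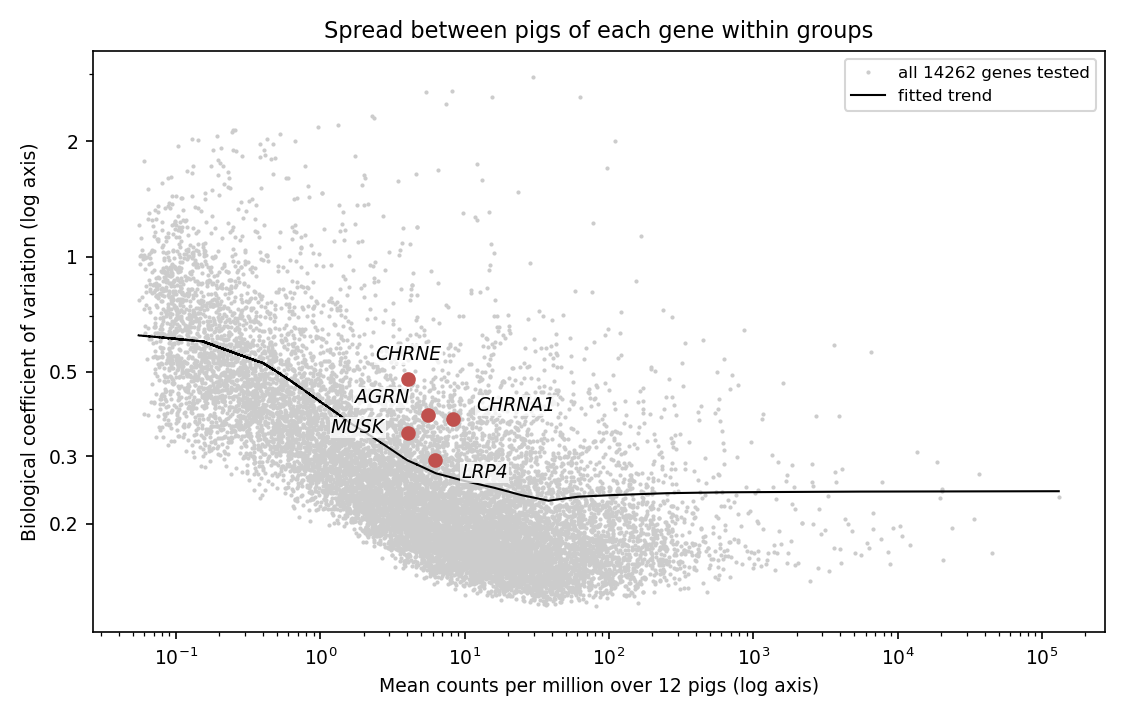
Biological coefficient of variation against mean CPM, both on log axes, for all 14262 genes tested in grey, with the fitted trend as a line and the 5 members in red. The members lie above the trend, CHRNE at 0.479 the farthest and LRP4 at 0.295 the nearest.

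Different pigs were high for different members. Pig 2 was the highest of all pigs for CHRNA1 and AGRN and ranked 3 for MUSK but 8 for CHRNE. Pig 6 ranked 2 for CHRNA1 and was the lowest for AGRN. Pig 12 had the lowest CHRNE and LRP4 of all pigs together with the second highest AGRN, and pig 3 had the lowest CHRNA1. The libraries therefore did not rank alike over the members.

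Across the 12 pigs, the log2 CPM of 0 of the 10 pairs of members correlated at an adjusted p of 0.05 (permutation test, two-sided, 100000 resamples, Benjamini-Hochberg over 10 pairs). The pair with the largest r was CHRNE and LRP4, with r = 0.43 (permutation p = 0.165, adjusted p = 0.808) and rho = 0.45 (permutation p = 0.141, adjusted p = 0.816). Without the 2 pigs farthest from the median of CHRNE, r was 0.20. The receptor subunits CHRNA1 and CHRNE gave r = 0.24 (permutation p = 0.404, adjusted p = 0.808) and rho = 0.30 (permutation p = 0.342, adjusted p = 0.816), and r = 0.33 without the 2 pigs farthest from the median of CHRNA1. With the group means taken off, the smallest adjusted p over the pairs was 0.513 (permutation test). The points share libraries, and with 12 pigs only strong correlations could have passed.

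Low IMF was compared with high IMF by edgeR's quasi-likelihood test over all 14262 genes tested, to ask whether junction genes differed with the fat content of the muscle. The log2FC is low over high IMF, and a called gene had a size of log2FC no smaller than 0.58 with an adjusted p no greater than 0.05. Of the 5 members, 0 were called, where 0% of all genes tested were. An unadjusted p no greater than 0.05 was found for 1 member, LRP4, and for 10.4% of all genes tested. For 0 of 5 members were the groups free of overlap, where 0.659% of all genes were. DESeq2's Wald test on the same genes also called 0 members, where it called 0.414% of all genes.

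Of the receptor subunits, CHRNA1 had a log2FC of -0.55 (SE 0.31, adjusted p = 0.548), with a 95% interval from -1.21 to 0.11. The exact permutation test of the mean log2 CPM gave p = 0.297 over all arrangements of the pigs, two-sided, where the smallest p it allows is 0.00216. Without pig 2 the log2FC was -0.21, and in the 6 pigs whose Y chromosome counts match their labels it was -0.96. CHRNE had a log2FC of 0.45 (SE 0.40, p = 0.280, adjusted p = 0.724), with a 95% interval from -0.41 to 1.30, and the exact permutation p was 0.729. It was 0.10 without pig 7 and 0.68 without pig 12, and in the 6 pigs whose Y chromosome counts match their labels it was -0.44. The low IMF pigs among these are pigs 11 and 12, and pig 11, at 4.37 CPM, lies above 3 of the 4 high IMF pigs, while pig 12, at 0.832 CPM, lies below all 4. The common and the adult subunit thus had log2FC of opposite sign, neither of which exceeded the spread between pigs.

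Of the clustering genes, LRP4 had the smallest p, with a log2FC of 0.55 (SE 0.23, adjusted p = 0.448) and a 95% interval from 0.05 to 1.05. Its exact permutation p was 0.110, beside an unadjusted edgeR p of 0.0341, and 4 of 6 low IMF pigs exceeded all high IMF pigs. With each pig left out in turn the log2FC stayed between 0.40 and 0.68, the lowest without pig 8 and the highest without pig 12, and its unadjusted p was at or under 0.05 in 6 of 12 cases. In the 6 pigs whose Y chromosome counts match their labels it was 0.03. MUSK had a log2FC of 0.08 (SE 0.28, p = 0.770, adjusted p = 0.944; exact permutation p = 0.738), with a 95% interval from -0.51 to 0.68, and it was 0.66 in those 6 pigs. AGRN had a log2FC of 0.14 (SE 0.31, p = 0.662, adjusted p = 0.910; exact permutation p = 0.543), with a 95% interval from -0.53 to 0.81. The intervals of MUSK and AGRN each reach past 0.58, so a difference of the size used for a call lies within them.

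**Figure D4:**
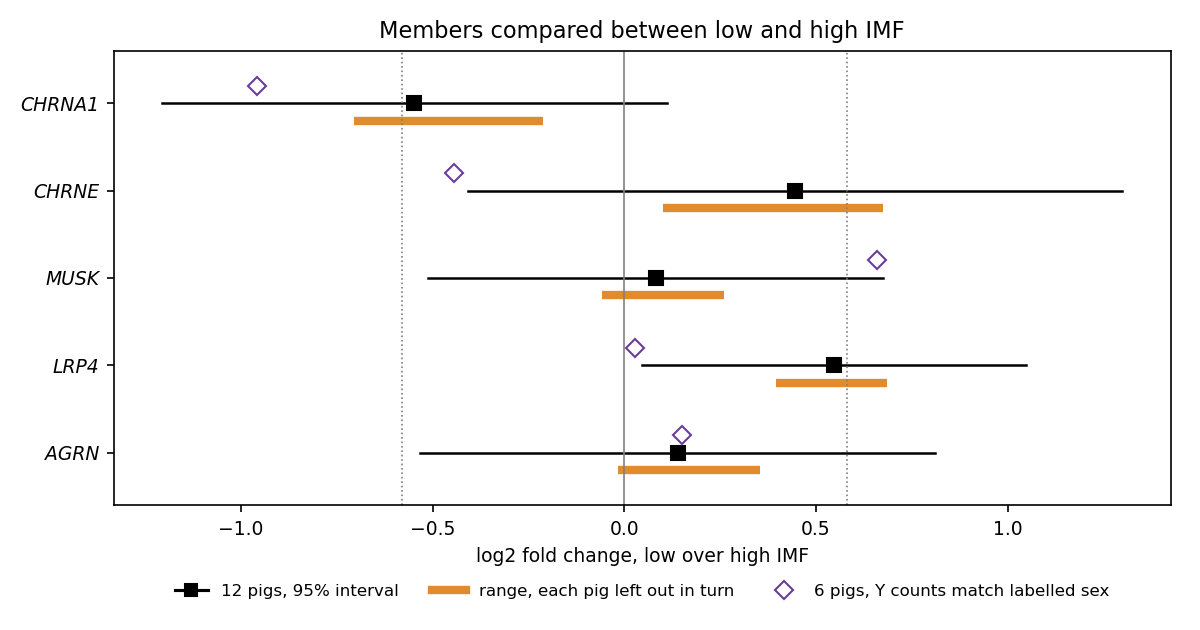
Log2 fold change, low over high IMF, of each member with its 95% interval from edgeR's quasi-likelihood fit (squares and lines), the range with each pig left out in turn (bars) and the value in the 6 pigs whose Y chromosome counts match their labelled sex (diamonds). Dotted lines mark 0.58 in size. The interval of LRP4, from 0.05 to 1.05, is the one that does not reach 0, and the diamond of CHRNE lies at -0.44, on the other side of 0 from its square.

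Ratios of members within a pig need no scaling of libraries and were compared between the groups with exact two-sided permutation tests, adjusted over the 10 pairs. The log2 ratio of CHRNA1 to CHRNE counts was 1.39 ± 0.876 (SD, n = 6) in high IMF and 0.81 ± 0.917 (SD, n = 6) in low IMF, a difference of -0.58 (exact permutation p = 0.240, adjusted p = 0.601). The difference was -0.35 without pig 6, -0.36 without pig 7, -0.36 without pig 2 and -0.92 without pig 12, and in the 6 pigs with matching Y chromosome counts it was -0.03. The ratio with the smallest p was CHRNA1 to LRP4, at 0.81 ± 0.680 (SD, n = 6) in high IMF and -0.05 ± 0.512 (SD, n = 6) in low IMF, a difference of -0.86 (exact permutation p = 0.0303, adjusted p = 0.303). Without pig 3 it was -1.06 (exact permutation, adjusted p = 0.0433). With 12 pigs, 0 of the 10 ratios passed at an adjusted p of 0.05.

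Labelled age was set beside the members because the oldest pig, pig 7 at 249 days, had the most CHRNE and the youngest, pig 12 at 229 days, the least. Over 12 pigs CHRNE and age gave r = 0.45 (permutation p = 0.138, adjusted p = 0.690) but rho = 0.05 (permutation p = 0.889, adjusted p = 0.889). In the 6 pigs whose Y chromosome counts match their labels, r was 0.65 (exact permutation p = 0.183, adjusted p = 0.306) and rho 0.21 (exact permutation p = 0.733, adjusted p = 0.733). Ages come from the same labels as sex, which the Y chromosome counts contradict in the other 6 pigs, pig 7 among them, so an age may not be that of the pig it is given for. Without pigs 9 and 12, whose ages are farthest from the median, r was 0.19, and r was 0.76 within the low and -0.66 within the high IMF group. The other 4 members had r between -0.20 and 0.33 (adjusted p of at least 0.746, permutation test). In the 6 pigs with matching counts the largest r was that of LRP4, 0.84 (exact permutation p = 0.0417, adjusted p = 0.208).

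The remaining genes of the pathway were counted in 5 lists of 64 genes, of which 60 matched a row and 51 were tested. None of the 51 was called by edgeR's quasi-likelihood test, which called 0% of all genes, or by DESeq2's Wald test on the same genes, which called 0.414%. By the unadjusted p alone, 8 passed 0.05, which is 15.7% of the 51, beside 10.4% of all genes. All 8 were higher in low IMF, a direction in which 5.38% of all genes passed. The 3 tested genes of the muscle fibre list, ACTA1, CKM and DES, were also higher in low IMF, with log2FC of 0.29, 0.19 and 0.23. Their adjusted p was 0.602, 0.679 and 0.620 by edgeR, and 0 had an unadjusted p at or under 0.05. Whether the 8 follow the amount of fibre in a sample was not tested. The 5 pathway lists are given in the order from the synaptic cleft to the nucleus.

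In the synaptic cleft and the postsynaptic scaffold, 14 of 17 listed genes were tested, with a median log2FC of 0.13 and 3 genes with an unadjusted p within 0.05. The median over all genes tested was -0.01. LAMB2, the laminin chain of the synaptic basal lamina, had the smallest p, at 66.98 to 95.9 CPM with a median of 76.4 in high IMF and 81.5 to 118.7 CPM with a median of 114.4 in low IMF (log2FC 0.40, SE 0.12, adjusted p = 0.419 by edgeR). ACHE, the enzyme that breaks down acetylcholine, had 0.331 to 3.52 CPM in high IMF and 0.492 to 3.14 CPM in low IMF, with a log2FC of -0.03. It was highest in pigs 2 and 9, which ranked 1 and 3 for CHRNA1. COLQ, which anchors that enzyme in the cleft, had at most 18 counts in a pig and none in 7 pigs, and was not tested. UTRN, utrophin of the postsynaptic membrane, had medians of 77.6 and 75.7 CPM in high and low IMF with a log2FC of 0.05. PLEC, plectin, had the highest mean level of the list, with medians of 175.2 and 320.2 CPM and a log2FC of 0.42 (SE 0.34, adjusted p = 0.687 by edgeR).

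Downstream of MuSK, all 17 listed genes were tested, with a median log2FC of 0.14 and 3 with an unadjusted p within 0.05. CRK and CRKL are adaptors that bind DOK7 once it is phosphorylated. CRKL, with the smallest p of the list, had 118.0 to 133.1 CPM in high IMF and 138.9 to 165.4 CPM in low IMF (log2FC 0.30, SE 0.08, adjusted p = 0.342 by edgeR). Its groups thus did not overlap, as was so for 0.659% of all genes tested. CRK had the highest mean level of the list, with medians of 327.7 and 326.0 CPM, and had a log2FC of -0.01.

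In the neuregulin, ErbB and Ets list, which drives synaptic transcription, 7 of 8 genes were tested, with a median log2FC of -0.10 and 0 with an unadjusted p within 0.05. NRG1, neuregulin, was at 0 in 8 pigs and had 153 counts in pig 6, and was not tested. Its receptors ERBB2 and ERBB3 had medians of 14.95 and 0.809 CPM in high IMF and 18.8 and 0.732 CPM in low IMF, with a log2FC of 0.12 and -0.14. The Ets factors ETV5 and GABPA had a log2FC of 0.14 and -0.10, and GABPB1, the partner of GABPA, had the smallest p of the list (log2FC -0.29, SE 0.15, adjusted p = 0.502 by edgeR).

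Of genes that respond to denervation or mark developing muscle, 10 of 11 were tested, with a median log2FC of 0.01 and 1 with an unadjusted p within 0.05. NCAM1, an adhesion molecule that spreads over denervated fibres and is also made by satellite cells and Schwann cells, had 10.4 to 23.4 CPM in high IMF and 14.4 to 28.6 CPM in low IMF (log2FC 0.51, SE 0.22, adjusted p = 0.441 by edgeR). MYOG, myogenin, had medians of 21.2 and 17.3 CPM in high and low IMF with a log2FC of -0.17. The developmental myosins MYH3 and MYH8 were counted at medians of 466.7 and 1100 CPM in high IMF and 520.9 and 1026 CPM in low IMF, with a log2FC of 0.16 and -0.11. Myosin heavy chain genes are near-identical neighbours, and how reads with several alignments were handled is not given in the sources used here, so these levels are uncertain.

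Of the nicotinic receptor subunits of neurons and other cells, 9 of 11 matched a row and 3, CHRNA9, CHRNA10 and CHRNA6, had enough counts to be tested. The levels of CHRNA9 and CHRNA10 stood at percentiles 39.8 and 30.6 of all genes tested, and CHRNA10 had medians of 1.72 and 1.62 CPM in high and low IMF with a log2FC of 0.03 (adjusted p = 0.982 by edgeR). CHRNA9 had 1.14 to 3.93 CPM in high IMF and 1.82 to 3.27 CPM in 5 low IMF pigs, and 13.8 CPM in pig 12, the pig with the lowest CHRNE (log2FC 0.92, SE 0.49, adjusted p = 0.521 by edgeR). CHRNA6 had at most 0.166 CPM in high IMF and from 0.183 to 0.728 CPM in low IMF, with at most 79 counts in a pig (log2FC 1.37, SE 0.61, adjusted p = 0.463 by edgeR). Its groups did not overlap, as was so for 0.659% of all genes tested, and pig 4 had no count. The separation was narrow, with 26 counts in pig 2, the highest of high IMF, and 28 in pig 9, the lowest of low IMF.

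**Figure D5:**
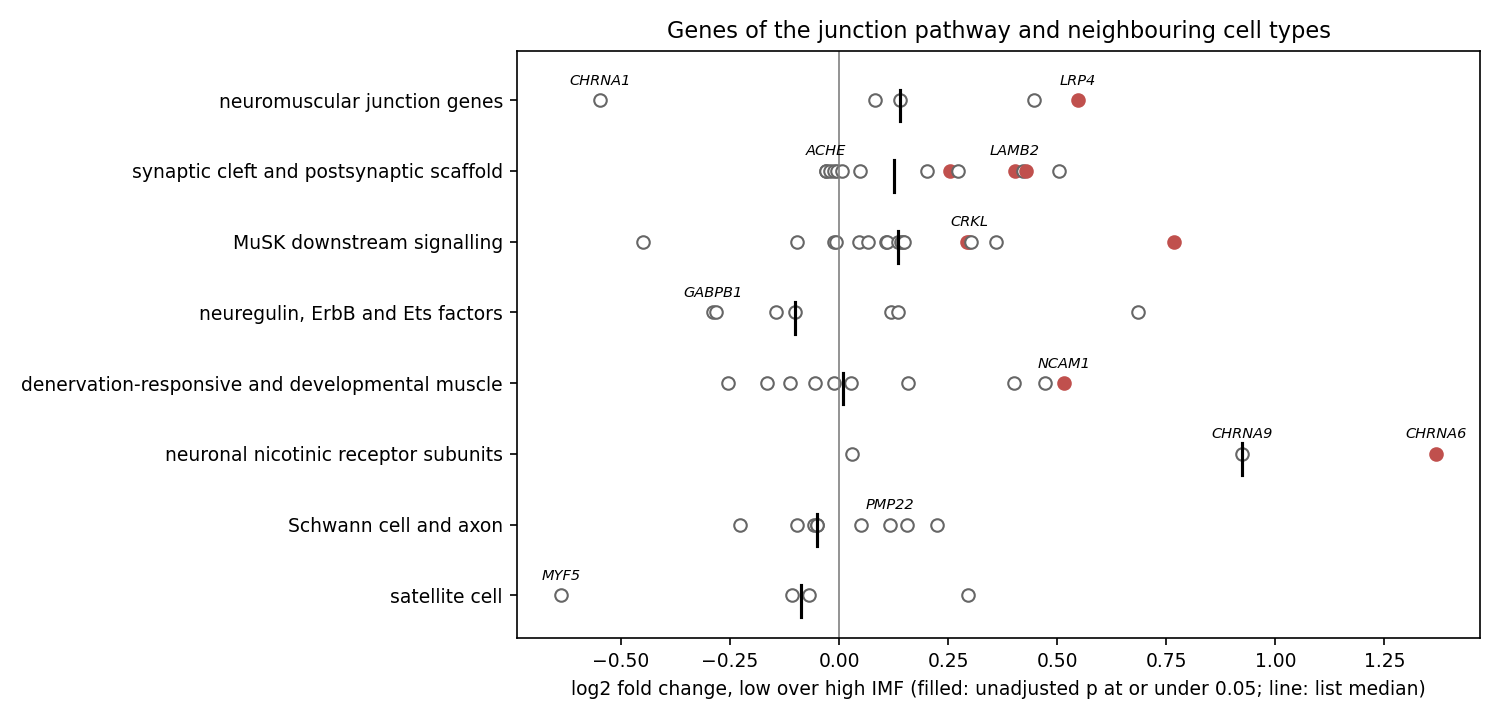
Log2 fold change, low over high IMF, of every tested gene of the members, of 5 pathway lists and of 2 cell type lists, 1 gene a point, filled where the unadjusted p of edgeR's quasi-likelihood test is at or under 0.05, with the median of each list as a line. The filled points all lie to the right of 0, and LRP4 is the filled point among the members.

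Nerve and other cell types were read from their markers, since a junction gene can also be expressed by them. Of 12 listed Schwann cell and axon genes, 9 were tested and 0 had an unadjusted p at or under 0.05. Their summed level ran from 35.05 to 61.5 CPM in high IMF and from 36.5 to 61.4 CPM in low IMF, most of it PMP22, a myelin protein that other cells make as well, with medians of 35.9 and 36.3 CPM. CDH19 and NGFR, which Schwann cells express, were at 0 in at least 1 pig. Endothelial markers summed to 91.96 to 123.2 CPM in high and 95.3 to 159.0 CPM in low IMF, none of the 4 at 0. CDH5, the cadherin of vessel walls, had the smallest p of the 4, with a log2FC of 0.55 (SE 0.16, adjusted p = 0.383 by edgeR). The log2FC of TEK was 0.10 and that of KDR -0.10. Satellite cell markers, none of the 4 at 0, summed to 12.3 to 29.4 CPM in high and 14.7 to 24.7 CPM in low IMF. Macrophage markers, none of the 5 at 0, summed to 47.1 to 104.5 CPM in high and 57.1 to 97.9 CPM in low IMF. Adipocyte markers summed to 265.3 to 381.0 CPM in high and 141.1 to 555.6 CPM in low IMF, most of it PLIN4, with LEP at 0 in at least 1 pig. The ranges of all these lists thus overlapped between the groups. Of the 7 adipocyte markers, 5 had a positive log2FC and 2 a negative one, ADIPOQ at -0.15 and FABP4 at -0.04 (adjusted p = 0.950 and 0.976 by edgeR). Of the genes with the highest mean level in these lists, PECAM1 had a log2FC of 0.16, CDH15 of -0.07, CD163 of 0.25 and the lipid droplet gene PLIN4 of 0.16, and the lipase gene LIPE and the myogenic factor MYF5, each with the smallest p of its list, had 0.54 and -0.64 (adjusted p between 0.558 and 0.964 for these 6 by edgeR). The part of these cell types in the values of the members was not tested.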

How the data were processed

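Stranded libraries of polyadenylated RNA from 12 pigs were sequenced as read pairs. Per the labels and the methods, the authors trimmed reads with Trimmomatic, aligned them to Sscrofa11.1 (HISAT2), ran StringTie for known transcripts and used HTSeq for counting. They deposited raw counts per Ensembl gene, without normalization. The annotation release is not given in the sources used here.

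Genes kept by filterByExpr were TMM-normalized and tested with edgeR 4.0.16 (quasi-likelihood, group as the only term) in R 4.3.3, with Benjamini-Hochberg adjustment over 14262 genes. Log2 CPM used a prior count of 2, and ratios a pseudocount of 0.5. Permutation tests ran in Python 3.11.15 with numpy 2.4.6 and scipy 1.17.1. Alternatives used DESeq2 1.42.0 and limma 3.58.1. The tests were tried on simulated data. There edgeR called 57% of the genes given a log2FC of 1 in size, and 4.05% of its calls were unchanged genes. DESeq2's Wald test called 68% of such genes, and 16.3% of its calls were unchanged genes. A difference of this size can therefore be missed.

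The members and lists were chosen with earlier results of these data known. The genes named by rule are all members, the most abundant gene and the one with the smallest p of each list, and 12 chosen junction genes. The fibre markers CKM and DES, the nerve markers CDH19 and NGFR, and CHRNA10, LEP, ADIPOQ, FABP4, TEK and KDR were named besides, after their values were seen. Ratios of members, levels per kilobase and relations with age were also chosen after the data were seen. The replicates are separate animals.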

Additional observations from a re-analysis of the deposited data

Results flagged for a closer look

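The 5 members and the 26 other tested genes named by the rule above were checked for pigs that stand apart. In each group of 6 pigs, the highest and the lowest log2 CPM of a gene were compared with the nearest pig by Dixon's ratio. Of 62 groups tested, 6 held a pig past it, where chance gives about 1 in 20. Of the 10 groups of members, 1 did: CHRNE in pig 12 was 0.832 CPM, where the other 5 low IMF pigs had 4.09 to 9.82 CPM. In the same pig CHRNA9 was 13.8 CPM, where the others had 1.82 to 3.27 CPM. Pig 12 was also the lowest of all pigs in LRP4, at 3.97 CPM, within the reach of its group.

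ACTA1 was 33957 CPM in pig 7, the pig with the most CHRNE, where the other low IMF pigs had 16660 to 21177 CPM. The library of pig 7 had the lowest TMM factor, 0.810, where the others had 0.918 to 1.12. The study also reports the smallest share of uniquely mapped reads for this pig. NCAM1 was 23.4 CPM in pig 2, the pig with the most CHRNA1, where the other high IMF pigs had 10.4 to 14.05 CPM. MYF5 was 0.214 CPM in pig 3, the pig with the least CHRNA1, where the others had 0.487 to 0.713 CPM. CHRNA6 was at 0 in pig 4, where the others had 0.110 to 0.166 CPM. The causes were not tested.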

How the results depend on the processing

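No member and no other gene of the pathway lists was called under any alternative run. Over all genes, edgeR called 0, DESeq2's Wald test 59 of the same genes and 65 when every gene with a count entered, and leaving out each pig gave 0 to 1, the 1 without pig 5 and without pig 10. The adjusted p of the members was at least 0.318 under each alternative. Of the members' log2FC, that of CHRNE turned to -0.44 in the 6 pigs whose Y chromosome counts match their labels and was 0.12 with limma-voom. With each pig left out, MUSK ran from -0.059 to 0.26 and AGRN from -0.017 to 0.35, so that both changed sign, and CHRNA1 ran from -0.71 to -0.21 and CHRNE from 0.10 to 0.68. The difference between CHRNA1 and CHRNE per kilobase fell to 0.32 with the shortest transcript, because a shorter length raises the level of CHRNE. The number of ratios that passed was 0 to 1 with each pig left out, the 1 without pig 3. Correlations between members passed in 0 pairs under every alternative, and age in 0 members. The causes of these changes were not otherwise tested.

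The planned comparison of CHRNE with CHRNG and its alternatives, coding length among them, were not run, since CHRNG was not analysed here. No paired analysis was possible because the pigs are unrelated animals. With 142 to 3170 counts of a member in a pig, depth was less limiting than the number of pigs.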
